A study of Mus musculus with 5 samples.

Results

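The genes described here are 10 that hepatocytes use to make bile acids, to move them and to sense the signal that holds their synthesis back: Cyp7a1, Cyp8b1, Cyp27a1, Cyp7b1, Baat, Slc27a5, Slc10a1, Abcb11, Fgfr4 and Klb. They were taken by name, with earlier results of these data known, from 18809 genes that had a probe set with a single gene symbol, and 10 of 10 were measured, each by 1 probe set. Levels are log2 intensities of that probe set, and a difference is the mean of anti-CSF1R livers minus the mean of control livers on that log2 scale. The livers came from adult C57Bl/6 mice. One group of 2 liver samples had received M279, an antibody against CSF1R, the receptor for the macrophage growth factors CSF1 and IL-34. The other group of 3 liver samples had received a rat IgG control. In both groups 300 µg was injected into the peritoneal cavity 3 times a week over 6 weeks. Each sample gave 1 array. The labels do not say whether the samples came from separate or pooled animals, so p-values measure the spread between these samples, which may be technical.

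Bile acids are made from cholesterol in hepatocytes. The classic pathway opens with CYP7A1, and CYP8B1 then directs it towards cholic acid. The alternative, or acidic, pathway opens with the sterol 27-hydroxylase CYP27A1 and continues with the oxysterol 7α-hydroxylase CYP7B1. The acids are activated by the CoA ligase encoded by Slc27a5 and joined to taurine or glycine by BAAT. The transporter NTCP (Slc10a1) takes them up from portal blood and the pump BSEP (Abcb11) exports them into bile. In the liver the bile acid receptor FXR (Nr1h4) induces Abcb11 and the repressor SHP (Nr0b2), and in the ileum it induces the hormone FGF15, which acts on hepatocytes through FGFR4 and its co-receptor β-Klotho (Klb) to lower Cyp7a1.

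Promoter sequences from RefSeq (GRCm38.p6) were at hand for 6 of the 10 genes, and Cyp7a1, Cyp7b1, Baat and Slc27a5 had no entry. The 250 bases upstream of the start of Abcb11 and Cyp8b1 are shown because they hold elements through which the receptors measured below are known to act. Their genes encode the export pump and the enzyme that directs the classic pathway towards cholic acid. Capitals mark matches to the patterns that follow, each searched on both strands, with N for any base. The FXR pattern is a loosened form of the inverted repeat that FXR binds (GGNCA and TGACC with 1 base between them). The others are CAAAGTCCA, an element of HNF4 (Hnf4a), and CAAGGNCA, a site of LRH-1 (Nr5a2).
Abcb11, chr2:69342617-69342866, minus strand: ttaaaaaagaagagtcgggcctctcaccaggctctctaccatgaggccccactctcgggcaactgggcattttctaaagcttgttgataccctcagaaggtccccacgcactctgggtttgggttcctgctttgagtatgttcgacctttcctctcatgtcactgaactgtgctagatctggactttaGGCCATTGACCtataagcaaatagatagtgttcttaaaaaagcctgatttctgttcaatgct
Cyp8b1, chr9:121916306-121916555, minus strand: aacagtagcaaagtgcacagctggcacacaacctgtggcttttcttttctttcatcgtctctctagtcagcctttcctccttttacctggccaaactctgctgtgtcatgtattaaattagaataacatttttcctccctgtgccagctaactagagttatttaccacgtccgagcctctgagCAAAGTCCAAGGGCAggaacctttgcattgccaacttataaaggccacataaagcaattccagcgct
In Abcb11 the match to the FXR pattern lay 62 to 52 bases before the start, and its arms are not perfect inverses of each other. Of 32536 RefSeq promoter windows of the same length, 0.2% held a match to that pattern. In Cyp8b1 the HNF4 element lay 67 to 59 bases and the LRH-1 site 60 to 53 bases before the start, so the matches overlap. They occurred in 0.387% and 5.54% of the windows. The windows of Cyp27a1, Slc10a1, Fgfr4 and Klb held none of these letters. A match describes the sequence, and the arrays did not measure binding.

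The labelled tissue was checked by its defining genes. Of 12 hepatocyte markers 10 were measured. Alb and Apoa1, the brightest of them, averaged 13.13 and 13.01 in anti-CSF1R livers and 13.13 and 13.02 in control livers (log2 levels, n = 2 and 3). The summed intensity of the 10 lay at 55923 and 52913 on the anti-CSF1R arrays and at 53795 to 56662 on the control arrays. Of the 10, 5 were higher and 5 lower in anti-CSF1R livers, with differences from -0.29 to 0.37. Both anti-CSF1R arrays lay above every control for 1 and below for 2 (24.3% and 16.9% of all probe sets). Median intensity over 35556 probe sets was 32.8 and 32.5 on the anti-CSF1R arrays and 32.8 to 33.9 on the control arrays. The lower quartile was 13.4 and 12.8 on the anti-CSF1R arrays and 11.7 to 11.9 on the control arrays. The upper quartile was 147.7 and 149.6 on the anti-CSF1R arrays and 159.6 to 164.3 on the control arrays. The groups were thus apart at both quartiles, with a narrower range of intensities on the anti-CSF1R arrays. The fit was also run after quantile normalization, which gives all arrays the same distribution, and values from it are given below for some genes. The part of the narrower range in the differences was not tested further. Pearson's r between 2 arrays, over probe sets, ran from 0.9825 to 0.9917. The target receptor gene, Csf1r, differed by -0.56 ± 0.12 (SE), with both anti-CSF1R arrays under every control array. The number of arrays limits the precision throughout, with a median SE of 0.138 for a log2 difference.

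Cyp7a1, the rate-limiting enzyme of the classic pathway, had the largest difference of the 10 genes. Its intensity was 670.8 and 702.5 in anti-CSF1R livers, against 1259.5, 851.8 and 1129.1 in control livers. Both anti-CSF1R livers lay under the lowest control, and they lay closer to each other than the controls did. On the log2 scale the means were 9.42 ± 0.05 in anti-CSF1R livers and 10.06 ± 0.29 in control livers (SD, n = 2 and 3). The difference was -0.63 ± 0.18 (SE), a ratio of 0.644 with a 95% interval of 0.473 to 0.877, and it did not pass over all probe sets (limma, adjusted p = 0.207, unadjusted p = 0.0131). Of all genes 5.74% had a smaller p. Leaving out any 1 array kept the difference between -0.797 and -0.515, and after quantile normalization it was -0.651. The controls themselves spanned 0.56 on the log2 scale, a spread close to the size of the difference.

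No probe set of the 35556 passed an adjusted p of 0.05 in limma (0.0%), so none of the 10 genes did. At an unadjusted p under 0.05 in limma, 3594 probe sets were higher (10.1%) and 2965 lower (8.34%) in anti-CSF1R livers, and of the 10 genes 0 were higher and 1 lower. Both anti-CSF1R arrays lay under every control array for 3 of the 10 genes, Cyp7a1, Baat and Fgfr4, where this held for 16.9% of probe sets and for 3669 of the 18809 genes. They lay above every control array for 0 of the 10, where this held for 24.3% of probe sets and for 4728 of the 18809 genes. With 10 genes, these counts are not read as setting them apart from the rest. The median difference was -0.10 over the 10 genes and 0.04 over all genes, and for the 10 it was -0.168 without control replicate 2, -0.034 without control replicate 3 and -0.005 without anti-CSF1R replicate 2.

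**Figure D1:**
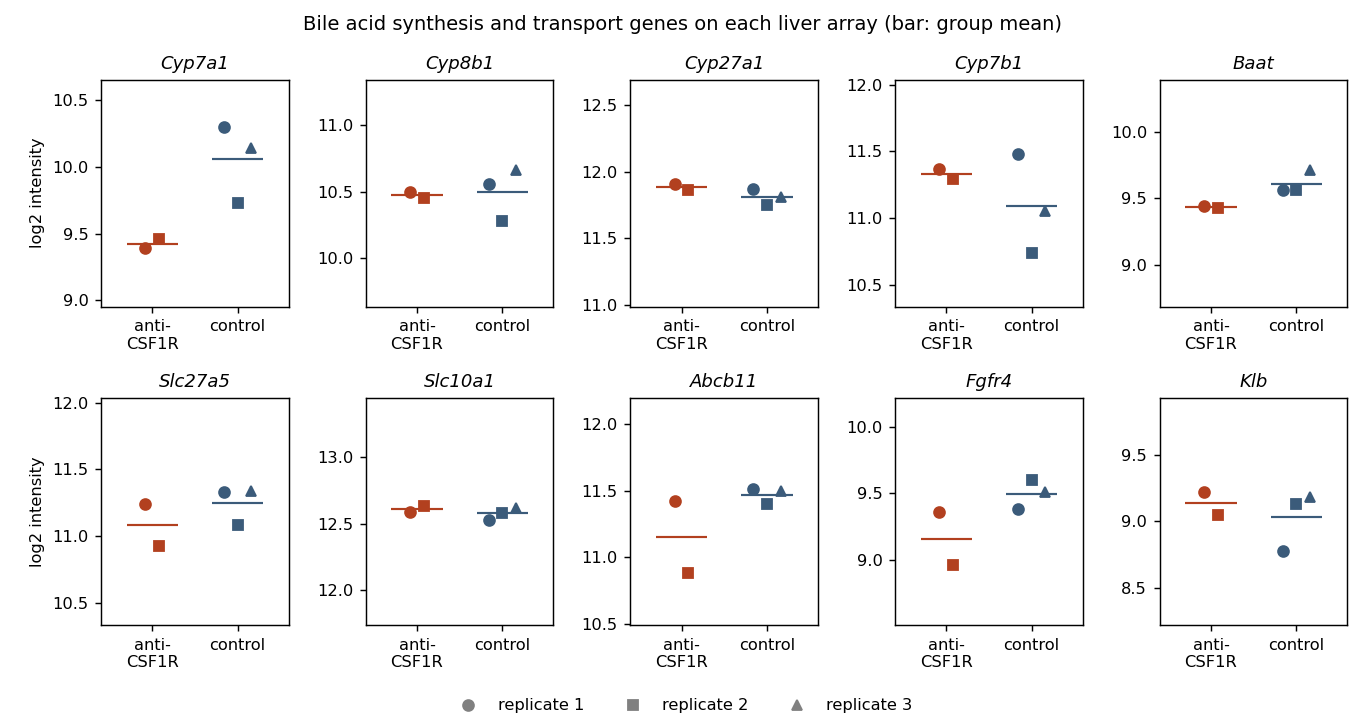
Log2 intensity of the 10 genes on each array, with anti-CSF1R livers on the left and control livers on the right of each panel, 1 point per array and a bar at the group mean. Every panel spans the same number of log2 units. Cyp7a1, Baat and Fgfr4 have both anti-CSF1R points under all control points, and the anti-CSF1R points of Abcb11 lie 0.55 apart.

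CYP8B1, the sterol 12α-hydroxylase that sets the share of cholic acid, showed no such difference. Cyp8b1 intensity was 1452.8 and 1395.7 in anti-CSF1R livers, against 1510.0, 1246.0 and 1623.5 in control livers. The anti-CSF1R values lay inside the range of the controls. The difference was -0.03 ± 0.14 (SE), with a 95% interval for the ratio of 0.77 to 1.25 (limma, adjusted p = 0.924), and its sign turned in 5 of 13 alternative settings. The arrays do not settle whether Cyp8b1 differed by less than that interval.

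The acidic pathway genes had values at or above the control mean. Cyp27a1, whose mitochondrial enzyme oxidises the sterol side chain, had an intensity of 3839.9 and 3711.8 in anti-CSF1R livers, against 3738.9, 3444.4 and 3580.5 in control livers. The groups overlapped by the lower anti-CSF1R array. Its difference was 0.07 ± 0.10 (SE), an interval of 0.884 to 1.25 for the ratio, and it came to 0.01 after quantile normalization. Cyp7b1 intensity was 2650.2 and 2502.1 in anti-CSF1R livers, against 2859.7, 1714.9 and 2118.2 in control livers. Control replicate 1 lay above both anti-CSF1R arrays and the other controls below them. The difference of Cyp7b1 was 0.24 ± 0.22 (SE), and it lay between 0.065 without control replicate 2 and 0.434 without control replicate 1.

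Control livers varied more in these hydroxylases than in most genes. The SD over the 3 control arrays was 0.37 for Cyp7b1, 0.29 for Cyp7a1 and 0.20 for Cyp8b1 on the log2 scale, where the median gene had 0.11. A larger control SD was found for 1.83%, 4.6% and 15.8% of genes. Control replicate 2 had the lowest value of the 3 controls for each of these genes, and for Cyp27a1 too. By contrast Slc10a1 had a control SD of 0.05 and Cyp27a1 one of 0.06.

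Since Cyp7a1 and the other hydroxylases shared the low control array, their ratios within each array were also taken. These pairs were chosen after the values of the genes had been seen, and a ratio of intensities says nothing of which RNA was more abundant. The log2 ratio of Cyp7a1 over Cyp7b1, the 7α-hydroxylases of the classic and acidic pathways, was -1.98 and -1.83 in anti-CSF1R livers, against -1.18, -1.01 and -0.91 in control livers. The groups were apart by more than either group's range. The change of this ratio was -0.87, and it stayed between -0.949 and -0.799 with any 1 array left out. The log2 ratio of Cyp8b1 over Cyp7a1 was 1.11 and 0.99 in anti-CSF1R livers, against 0.26, 0.55 and 0.52 in control livers, a change of 0.61. Here too the groups were apart, and the range with any 1 array left out was 0.516 to 0.67. For both ratios the exact two-sided permutation test gave p = 0.1 (0.15 adjusted over the 3 ratios taken), the smallest p that 2 against 3 arrays allow. As the pairs were picked from the same values, this p gives the ratios no support. Its adjustment leaves out the pairs that were not taken.

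**Figure D2:**
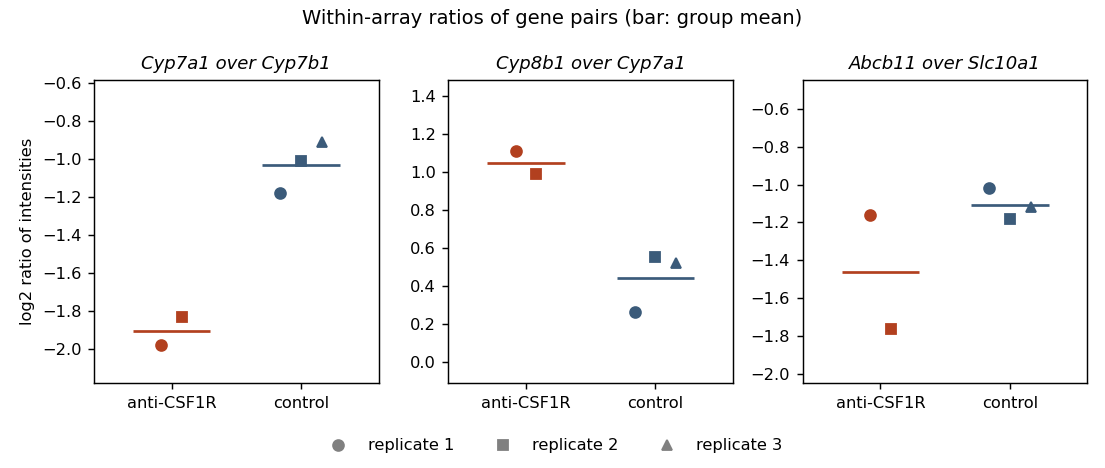
Log2 ratio of the intensities of gene pairs on each array, with anti-CSF1R livers on the left and control livers on the right, 1 point per array and a bar at the group mean. The ratios Cyp7a1 over Cyp7b1 and Cyp8b1 over Cyp7a1 separate the groups, and Abcb11 over Slc10a1 does not.

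The conjugation genes had lower means in anti-CSF1R livers, with 1 of them apart from the controls. Baat, whose enzyme joins bile acids to taurine or glycine, had an intensity of 694.3 and 688.8 in anti-CSF1R livers, against 752.5, 757.4 and 837.5 in control livers. The groups did not overlap, but the gap was small. The difference was -0.18 ± 0.11 (SE), a ratio of 0.885 with an interval of 0.737 to 1.06 (limma, adjusted p = 0.388). Slc27a5 intensity was 2414.6 and 1955.9 in anti-CSF1R livers, against 2582.6, 2162.9 and 2584.4 in control livers. The first anti-CSF1R array lay within the controls and the other under them. Its difference of -0.16 ± 0.15 (SE) came to -0.012 without anti-CSF1R replicate 2, -0.316 without replicate 1 and -0.25 without control replicate 2.

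The uptake carrier was steady over the 5 arrays, and the export pump was low on 1 of them. Slc10a1, the sodium-dependent uptake carrier, had an intensity of 6156.0 and 6360.6 in anti-CSF1R livers, against 5908.5, 6102.1 and 6301.0 in control livers. The groups overlapped and all 5 values lay close together. The difference was 0.04 ± 0.10 (SE), an interval of 0.863 to 1.22 for the ratio, and -0.001 after quantile normalization. Abcb11, the export pump, had an intensity of 2747.6 and 1879.2 in anti-CSF1R livers, against 2922.5, 2697.1 and 2903.1 in control livers. Anti-CSF1R replicate 1 lay within the controls and replicate 2 well below them. The difference of Abcb11 was -0.32 ± 0.18 (SE; limma, adjusted p = 0.353), -0.047 without replicate 2 and -0.595 without replicate 1. A wider gap between the anti-CSF1R arrays than its 0.55 was found for 4.9% of genes. The log2 ratio of Abcb11 over Slc10a1 was -1.16 and -1.76 in anti-CSF1R livers, against -1.02, -1.18 and -1.12 in control livers, with overlap (change of -0.36, exact permutation p = 0.2, 0.2 adjusted).

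Of the receptor pair for the ileal hormone, Fgfr4 had a lower mean in anti-CSF1R livers and Klb a higher one. Fgfr4, a receptor tyrosine kinase, had an intensity of 657.7 and 496.8 in anti-CSF1R livers, against 667.6, 775.4 and 729.4 in control livers. The groups did not overlap, but anti-CSF1R replicate 1 lay just under the lowest control. The difference was -0.34 ± 0.16 (SE; limma, adjusted p = 0.301), a ratio of 0.791 with an interval of 0.608 to 1.03, and it was -0.136 without anti-CSF1R replicate 2 and -0.541 without replicate 1. Klb intensity was 598.2 and 530.5 in anti-CSF1R livers, against 440.9, 558.7 and 582.0 in control livers. The range of the groups overlapped, and control replicate 1 was the low value. The difference of 0.11 ± 0.16 (SE) turned to -0.018 without that control, and was 0.019 without anti-CSF1R replicate 1 and 0.193 without replicate 2. The difference between the changes of Fgfr4 and Klb was not tested.

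**Figure D3:**
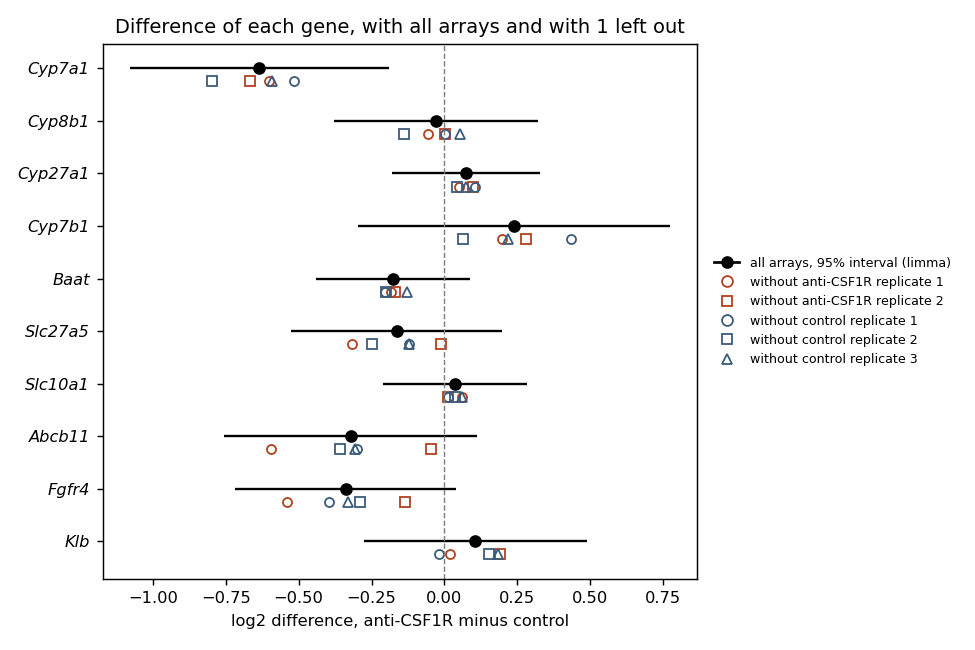
Log2 difference of each gene, anti-CSF1R minus control. Filled points and lines give the limma estimate from all arrays with its 95% interval, and open symbols give the estimate with 1 array left out. The interval of Cyp7a1 lies below 0 and the other 9 include 0, and the open symbols of Abcb11, Slc27a5 and Fgfr4 spread with the anti-CSF1R array left out.

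Abcb11, Fgfr4 and Slc27a5 thus had their low values on anti-CSF1R replicate 2, while Cyp7a1 and Baat were low on both anti-CSF1R arrays. The mean of the 10 genes stood at -0.04 and -0.20 from the control mean on anti-CSF1R replicates 1 and 2. On the same arrays 14 other synthesis genes stood at 0.05 and -0.14, and 20 other transport genes at 0.02 and -0.21. The hepatocyte markers stood at 0.05 and -0.03. A lower mean on replicate 2 was thus not particular to the 10 genes. Markers of other liver cells varied between the same arrays. The mean of 12 Kupffer cell markers stood at -0.33 on anti-CSF1R replicate 1 and 0.10 on replicate 2, and at -0.08 to 0.11 on the control arrays. Their summed intensity was 3075 and 4136 in anti-CSF1R livers and 3713 to 4319 in control livers, and their brightest genes were Vsig4 and Clec4f, at 9.98 and 8.93 in anti-CSF1R livers and 10.10 and 9.18 in control livers. Of the 12, 3 were higher and 9 lower. Both anti-CSF1R arrays lay above every control for 1 and below for 3 (24.3% and 16.9% of all probe sets). The scavenger receptor Marco (1.34 ± 0.17, SE) had both anti-CSF1R arrays above every control, and Cd163 (-0.80 ± 0.16), Csf1r and Adgre1 (-0.48 ± 0.18, or -0.236 without anti-CSF1R replicate 1 and -0.731 without replicate 2) had both below. After quantile normalization Marco, Cd163, Csf1r and Adgre1 differed by 1.429, -0.667, -0.5 and -0.378. Marco, Cd163 and Adgre1 were named after their values were seen. Without Marco the mean stood at -0.47 and -0.02 on anti-CSF1R replicates 1 and 2, and at -0.11 to 0.12 on the control arrays. For sinusoidal endothelium, where Clec4g and Fcgr2b were brightest, 10 markers summed to 5551 and 5374 in anti-CSF1R livers and to 4926 to 5193 in control livers. Without Clec4g the sums overlapped, at 3477 and 3268 in anti-CSF1R livers and 3269 to 3505 in control livers. The mean of the 10 overlapped too, at 0.03 and -0.05 on the anti-CSF1R arrays and -0.08 to 0.05 on the control arrays. Of these 10, 5 were higher and 5 lower. Both anti-CSF1R arrays lay above every control for 3 and below for 1, against 24.3% and 16.9% of all probe sets. For stellate cells, where Dcn and Reln were brightest, the sum of 10 markers was 4287 and 4112 in anti-CSF1R livers and 3941 to 4281 in control livers. Of these, 6 were higher and 4 lower, with both anti-CSF1R arrays above every control for 1 and below for 0. No Kupffer cell, endothelial or stellate cell marker lay in the lowest 10% of levels. The part of these cells in the differences was not tested, and in whole liver fewer cells of a type and less RNA per cell cannot be told apart.

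Other genes of bile acid synthesis showed no common direction. Of 16 listed 14 were measured, 7 higher and 7 lower, with a median difference of -0.05 and 0 past an adjusted p of 0.05 in limma. Both anti-CSF1R arrays lay above every control for 2 of them and below for 1 (24.3% and 16.9% of all probe sets). The gene below was Akr1d1, the Δ4-3-oxosteroid 5β-reductase, at 723.8 and 640.2 in anti-CSF1R livers, against 801.5, 771.6 and 952.1 in control livers, a difference of -0.30 ± 0.14 (SE). The genes above were the brain sterol hydroxylase Cyp46a1, dim here at 53.6 and 49.2 in anti-CSF1R livers against 37.2, 44.5 and 47.6 in control livers, and the hydroxysteroid dehydrogenase Akr1c6 (0.21 ± 0.13, or 0.114 without control replicate 2). The peroxisomal import receptor Pex5 had a difference of -0.27 ± 0.17, or -0.063 without anti-CSF1R replicate 2 and -0.479 without replicate 1.

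Among 20 other transport genes, 8 were higher and 12 lower, with a median difference of -0.07. Both anti-CSF1R arrays lay above every control for 4 and below for 5 (24.3% and 16.9% of all probe sets), and 0 passed in limma. Slc10a2, the sodium-dependent bile acid carrier of ileum and bile duct cells, had the smallest p of them. Its intensity was 150.6 and 87.1 in anti-CSF1R livers, against 280.4, 268.6 and 212.8 in control livers. The groups were well apart, with anti-CSF1R replicate 2 the lowest. The difference was -1.14 ± 0.26 (SE), a ratio of 0.454 with an interval of 0.294 to 0.701 (limma, adjusted p = 0.192). It was -0.743 without anti-CSF1R replicate 2 and -1.534 without replicate 1.

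Slc10a2 lies in bile duct cells as well as outside the liver, so the cholangiocyte list is given beside it. Of 12 such markers 9 were measured, with a median difference of -0.05, 3 higher and 6 lower. Both anti-CSF1R arrays lay under every control for 3 and above every control for 1, where this held for 16.9% and 24.3% of all probe sets. Their mean stood at 0.04 and -0.19 from the control mean on anti-CSF1R replicates 1 and 2, and at -0.02 to 0.04 on the control arrays. Their summed intensity was 1153 and 1122 in anti-CSF1R livers and 993 to 1090 in control livers, but without Aqp1 it was 445 and 368 in anti-CSF1R livers and 450 to 493 in control livers. The brightest were the water channel Aqp1, at 9.51 in anti-CSF1R livers and 9.18 in control livers, and the anion exchanger Slc4a2, at 7.10 in anti-CSF1R livers and 7.31 in control livers. The chloride channel Cftr lay in the lowest 10% of levels, at an intensity of 7.8 on both anti-CSF1R arrays and 7.1 to 9.0 on the control arrays. The genes that follow were picked after their values were seen. The duct keratin Krt19 was at 55.4 and 30.6 in anti-CSF1R livers and 31.7, 37.7 and 38.6 in control livers, and Krt7 at 52.4 and 25.4 in anti-CSF1R livers and 38.4, 38.6 and 36.6 in control livers. The keratins were thus highest on anti-CSF1R replicate 1 and lowest on replicate 2. The duct transcription factor Sox9 differed by -0.51 ± 0.15 (SE) and the mucin Muc1, a dim gene, by -0.44 ± 0.13 (-0.236 with 16 added to each intensity), each with both anti-CSF1R arrays under every control. After quantile normalization Sox9 differed by -0.376 and Muc1 by -0.552. The part of duct cells in the Slc10a2 difference was not tested.

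The other transport genes named by the fixed rule were Slc51a, Atp8b1 and Abcg5. Slc51a, a subunit of the basolateral bile acid exporter, was dim, at 27.8 and 22.3 in anti-CSF1R livers against 19.8, 17.4 and 15.4 in control livers (0.52 ± 0.16, SE). With 16 added to each intensity before log2 that difference was 0.292. The gene of its partner subunit, Slc51b, named after its values were seen, was at 31.9 and 33.9 in anti-CSF1R livers against 40.0, 34.3 and 40.8 in control livers. The difference of Slc51b was -0.22 ± 0.12 (SE), with a 95% interval of -0.52 to 0.08 on the log2 scale, which includes 0. The means of the subunits thus went opposite ways at low intensity. Atp8b1, a phospholipid flippase of the canalicular membrane, was at 495.9 and 447.6 in anti-CSF1R livers against 602.1, 573.0 and 613.1 in control livers (-0.34 ± 0.11). Abcg5, which with ABCG8 exports sterols into bile, was at 1188.4 and 1059.8 in anti-CSF1R livers against 859.9, 944.2 and 918.3 in control livers (0.31 ± 0.11). Its partner Abcg8, chosen after its values were seen, was at 819.3 and 703.2 in anti-CSF1R livers against 596.7, 604.6 and 640.1 in control livers (0.31 ± 0.12, or 0.197 without anti-CSF1R replicate 1). Both were above every control on both anti-CSF1R arrays, and none of these passed in limma (adjusted p of 0.219 to 0.255 for Slc51a, Atp8b1, Abcg5 and Abcg8).

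**Figure D4:**
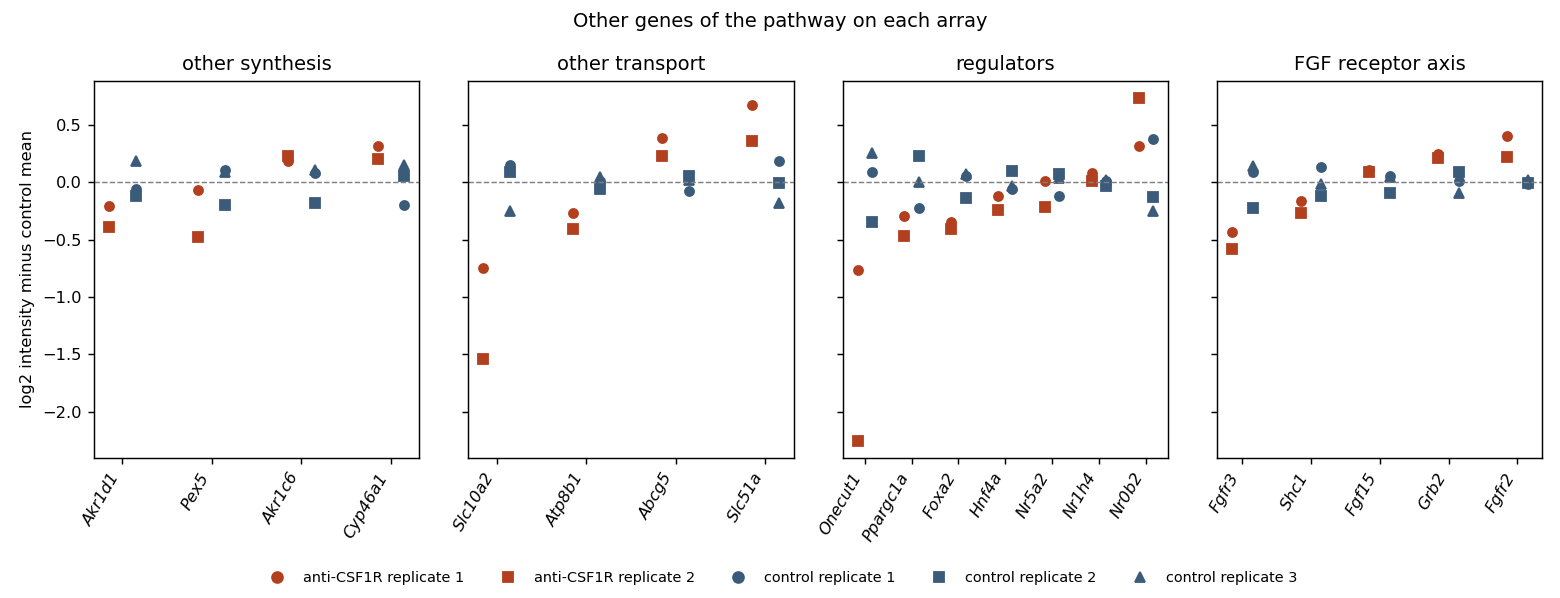
Log2 intensity minus the control mean for the named genes outside the 10, in 4 panels by list, with 1 point per array and anti-CSF1R points left of control points. Slc10a2 and Onecut1 lie farthest below 0 and most so on anti-CSF1R replicate 2, and Slc51a and Nr0b2 lie highest.

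Of 20 regulators of these genes 18 were measured, 10 higher and 8 lower, with a median difference of 0.03 and 0 past the threshold in limma. For 1 of them both anti-CSF1R arrays lay above every control and for 5 below (24.3% and 16.9% of all probe sets). Nr1h4, which encodes the bile acid receptor FXR, was at 906.2 and 858.9 in anti-CSF1R livers against 860.0, 838.1 and 865.9 in control livers, a difference of 0.05 ± 0.10 (SE). Nr0b2, the FXR-induced repressor of Cyp7a1, was at 802.9 and 1078.3 in anti-CSF1R livers against 835.5, 593.0 and 546.7 in control livers. Control replicate 1 lay above one anti-CSF1R array, so the groups overlapped. The difference of Nr0b2 was 0.52 ± 0.23 (limma, adjusted p = 0.286), and from 0.311 to 0.737 with 1 array left out.

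Hnf4a, an activator of Cyp7a1 and Cyp8b1, was at 2828.2 and 2605.4 in anti-CSF1R livers against 2952.4, 3295.7 and 3016.4 in control livers, with the groups apart (-0.18 ± 0.11, SE). Nr5a2 was at 675.4 and 574.2 in anti-CSF1R livers against 618.4, 704.7 and 692.0 in control livers (-0.11 ± 0.13), and at 0.01 without anti-CSF1R replicate 2 and -0.224 without replicate 1. The regulators with the smallest p included the transcription factors Onecut1 and Foxa2, which act in hepatocyte and duct development. Onecut1 was at 553.2 and 196.4 in anti-CSF1R livers against 994.9, 734.6 and 1124.4 in control livers, a difference of -1.51 ± 0.44, or -0.76 without anti-CSF1R replicate 2. Foxa2 was at 158.9 and 152.4 in anti-CSF1R livers against 209.1, 184.2 and 213.0 in control livers (-0.37 ± 0.12). The coactivator Ppargc1a was at 169.3 and 150.1 in anti-CSF1R livers against 176.8, 244.3 and 207.4 in control livers (-0.38 ± 0.16). These 3 had both anti-CSF1R arrays under every control, with adjusted p of 0.208, 0.217 and 0.283 in limma. After quantile normalization their differences were -1.481, -0.256 and -0.263.

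Around the FGF receptor, 11 of 12 listed genes were measured, 5 higher and 6 lower, with a median difference of -0.05 and 0 past the threshold in limma. For 5 of them both anti-CSF1R arrays lay above every control and for 3 below (24.3% and 16.9% of all probe sets). The ileal hormone gene Fgf15 was dim, at 23.7 and 23.6 in anti-CSF1R livers against 23.0, 20.7 and 22.7 in control livers, and 37.5% of genes had a lower level. Of the other receptors of the family, Fgfr3 was at 134.1 and 121.3 in anti-CSF1R livers against 192.4, 155.0 and 199.3 in control livers (-0.51 ± 0.15, SE). Fgfr2 was at 384.6 and 340.9 in anti-CSF1R livers against 288.8, 289.6 and 296.9 in control livers (0.31 ± 0.11). Fgfr2 and Fgfr3 thus lay on opposite sides of their controls with no overlap, at adjusted p of 0.236 and 0.208 in limma. After quantile normalization Fgfr2 differed by 0.368 and Fgfr3 by -0.378. Among the adaptors below the receptors, Grb2 differed by 0.23 ± 0.11 (0.379 after quantile normalization) and Shc1 by -0.22 ± 0.12.

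The genes whose profile lay nearest to that of Cyp7a1 were sought among 9403 genes with a mean level above the median, by the root mean square distance between log2 profiles over the 5 arrays, each centred on its mean. The 5 nearest were Itih5, Foxa3, B930095G15Rik, Mpv17l and Thrsp, at distances of 0.1 to 0.119, where the median gene lay at 0.35. Foxa3, a forkhead factor of hepatocytes, was at 302.6 and 366.6 in anti-CSF1R livers against 569.6, 398.7 and 472.3 in control livers. Thrsp, a regulator of fatty acid synthesis, was at 965.3 and 901.5 in anti-CSF1R livers against 1635.1, 1326.0 and 1410.1 in control livers. In both, as with Cyp7a1, control replicate 1 was the highest array and control replicate 2 the lowest control. The 5 genes were picked for their likeness, so their own differences of -0.64 to -0.51 are a description.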

How the data were processed

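The authors deposited probe set intensities on a linear scale, 1 column per array. The submitters' processing notes name Affymetrix Expression Console 1.1. How it was set for background, summarisation and normalization is not given in the sources used here. Per the labels' protocols, RNA was extracted with Trizol and amplified as cDNA with a NuGEN kit, which can alter relative levels.

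Log2 of each deposited intensity was taken, with no pseudocount or further scaling. Of 35556 probe sets, 21218 carried 1 gene symbol in the platform annotation, updated through RefSeq GRCm38.p6, and the brightest probe set stood for a gene. Groups came from the sample titles. limma 3.58.1 in R 4.3.3 (lmFit, eBayes, two-sided, 3 residual and 3.03 prior degrees of freedom) was fitted to all probe sets, with Benjamini-Hochberg adjustment over all of them and a threshold of 0.05. The code of the fit was run on simulated arrays with independent noise and planted changes, which does not test how these arrays vary. The members and lists were chosen with earlier results of these data known. Named genes were the 10, the 4 of smallest p from each of the lists of synthesis, transport, regulators and FGF receptor genes, Nr1h4, Nr0b2, Nr5a2, Hnf4a and Fgf15, the 2 brightest genes of each marker list and any in the lowest 10% of levels, and the 5 nearest to Cyp7a1. Others are said to be chosen later. Alternatives covered normalization, dim probe sets, a pseudocount, the probe sets tested, the variance model, the replicate number as a block and leaving out each array. Figures used matplotlib 3.10.9 in Python 3.11.15.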

Additional observations from a re-analysis of the deposited data

How the results depend on the processing

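None of the 10 genes passed in any setting run. With 1 probe set per gene, which tests fewer features, 14 genes passed in limma (5 higher, 9 lower), and with the mean over all probe sets of a gene, a count added after seeing the data, 12 did (4 higher, 8 lower). The other 11 alternatives gave 0. Cyp7a1 had an adjusted p of 0.0926 with 1 probe set per gene. Over the 13 alternatives Cyp7a1 lay between -0.797 and -0.515. Cyp8b1 turned to 0.011 with arrays centred on their medians and 0.054 with the replicate number as a block, and ranged from -0.137 to 0.054 with 1 array left out. Slc10a1 was at -0.001 after quantile normalization. With 1 array left out, Klb ranged from -0.018 to 0.193 and Nr5a2 from -0.224 to 0.01. The number of the 10 genes with both anti-CSF1R arrays under every control ranged from 3 to 6 with 1 array left out, against 20.0% to 28.9% of all probe sets. It was 6 without control replicate 2 (21.6%) and 5 without anti-CSF1R replicate 1 (28.9%). The median of the 10 ranged from -0.168 to -0.005. The causes were not tested.

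The change of Abcb11 over Slc10a1 was -0.655 without anti-CSF1R replicate 1 and -0.06 without replicate 2. The replicate block, added because the groups share replicate numbers, changed no call. Its fit leaves control replicate 3 without a partner, so it gave Cyp7a1 -0.593, as leaving out that array did. Same-numbered arrays had deviations from their group means that correlated at 0.0268 and 0.0325. The deviations of the 2 anti-CSF1R arrays mirror each other, so these values are not separate checks and cannot exclude pairing. The numbers were not taken to pair the samples. No blocked count of arrays apart was run. Leaving out 1 anti-CSF1R array assumes that the other varies like the controls. The alternatives for genes outside the 10 and for the ratios, and the marker sums without 1 gene, were chosen after seeing the data. The mean over all probe sets of a gene equalled the brightest for the 10, which have 1 each.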
